A study of Mus musculus with 21 samples.

Results

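The cells described here were splenic type 2 conventional dendritic cells (cDC2) with at least 1 unique molecular identifier (UMI, a tag that marks 1 captured transcript) of Esam or Clec4a4 and 0 UMIs of Clec12a. They numbered 936 of the 1881 cells of the cDC2 library, or 49.8% (exact binomial 95% interval 47.5 to 52.0), and the series held 25991 cells in 21 libraries. The series sequenced single mouse cells from the 3' end of their transcripts on the 10x Chromium platform, mostly fibroblasts given transcription factors, with sorted splenic dendritic cells beside them. The cDC2 library came from wildtype spleen and was sorted as live cells negative for the dye DAPI and positive for CD11c, MHC-II and CD11b. For background values, the rule was also applied to the wildtype cDC1 library (DAPI-negative, CD11c+, MHC-II+, CD8alpha+), the wildtype pDC library (DAPI-negative, CD11c+, SiglecH+, B220+, BST2+) and 2 libraries of untransduced wildtype mouse embryonic fibroblasts (MEF, DAPI-negative). The sources used here do not give the number, age or sex of the animals, and none of the groups had been transduced.

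Dendritic cells take up antigen and present it to T cells, and the cDC2 of the spleen mainly present it to CD4+ T cells. Splenic cDC2 are usually divided into a subset with high ESAM, an adhesion molecule of endothelial and some myeloid cells, and a subset with low ESAM. The ESAM-high subset depends on Notch2 signalling and on lymphotoxin, carries the inhibitory lectin DCIR2 (encoded by Clec4a4) and often CD4, and sits near the marginal zone bridging channels. The ESAM-low subset carries CLEC12A, another inhibitory lectin, together with CX3CR1, CCR2 and lysozyme, and shares many genes with monocytes. These divisions are also called cDC2A and cDC2B.

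Because 1 library held all members, no difference below was tested, and no replicate spread exists for any of them. Levels are UMI counts scaled to a common total (CPM), summed over the cells of a group after each cell had been thinned at random to 5000 UMIs, so that every cell had the same depth. Thinning left out shallower cells and kept 925 members and 910 other cells of the library. Ranges in parentheses are exact 95% intervals that cover counting error only. The members were chosen by measured values, so the levels of the 3 genes of the rule are a description of the choice. Members had a median of 11657 UMIs per cell as deposited (2885 to 35323) and the other cells 12345 (2779 to 48856). At the thinned depth the median number of genes was 1847 in members and 1795 in other cells. Mitochondrial transcripts made up a median of 1.82% in members and 1.58% in other cells.

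The rule selected cells mainly through Clec4a4. Of the 936 members, 580 had Clec4a4 without Esam, 128 had Esam without Clec4a4 and 228 had both. Single UMIs carried much of the choice, since 414 members had 1 UMI of the pair of genes, 260 had 2, 142 had 3, and the rest had 4 to 9. In the whole library as deposited, Esam was detected in 384 of 1881 cells (20.4%) at 23.4 CPM, Clec4a4 in 952 (50.6%) at 69.3 CPM, and Clec12a in 481 (25.6%) at 56.4 CPM. Clec4a4 has close relatives in the genome (Clec4a1, Clec4a2 and Clec4a3), and its count is uncertain where reads could not be told apart.

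The other 945 cells fell into 3 kinds. Cells with 0 UMIs of all 3 genes numbered 464 (24.7% of the library), cells with Clec12a alone 326 (17.3%), and cells with Clec12a together with Esam or Clec4a4 155 (8.24%). Of the 155 cells with Clec12a and either of the other genes, 74 stood just outside the rule with exactly 1 Clec12a UMI. Depth differed between the kinds, with a median of 10783 UMIs in the cells negative for all 3 genes, 13718 with Clec12a alone and 14886 with Clec12a and either gene. By quintile of depth, from the shallowest to the deepest, members made up 46.3%, 60.1%, 55.4%, 50.1% and 36.9% of the cells.

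Neither Esam nor Clec4a4 was seen in the fibroblasts, which had 0 of 2045 and 0 of 1728 cells with a UMI of either gene at median depths of 18100 and 25927.5 UMIs. A count of 0 allows shares of cells with a UMI of up to 0.147% and 0.174% there, which limits detection and not expression, against a cDC2 library with a median depth of 11957 UMIs. Clec4a4 was also at 0 in 814 cDC1 cells (median 15938 UMIs, share of up to 0.369%) and in 4169 pDC cells (median 11707 UMIs, share of up to 0.0720%). Esam was at 0 in pDC and was seen in 21 cDC1 cells (2.58%, 1.60 to 3.92). Clec12a, by contrast, was detected in 84.2% of cDC1 cells and 98.3% of pDC cells. Applied to those libraries, the rule selected 1 cDC1 cell, 0 pDC cells and 0 fibroblasts. The cDC2 library shared 1 cell barcode with the pDC library, which belonged to no member, and 0 with the cDC1 and fibroblast libraries.

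Clec12a was detected in a smaller share of the cells that had Esam or Clec4a4 than of those that had neither. As deposited, Clec12a was detected in 155 of 1091 cells with Esam or Clec4a4 (14.2%, 12.2 to 16.4) and in 326 of 790 cells without them (41.3%, 37.8 to 44.8), at median depths of 11936 and 11976 UMIs. At the thinned depth the shares were 5.80% and 21.5%. With each gene taken alone, Clec12a was detected in 7.29% of cells with Esam against 30.3% without, and in 15.1% of cells with Clec4a4 against 36.3% without. Esam and Clec4a4 overlapped in the other direction, with Clec4a4 detected in 63.8% of cells with Esam (58.8 to 68.6) and in 47.2% of those without (44.7 to 49.8). At the thinned depth the corresponding shares of Clec4a4 were 33.8% (27.4 to 40.6) and 27.4% (25.2 to 29.6), and these intervals overlap.

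The members had the markers of the sort. All 8 cDC2 markers examined (Sirpa, Itgam, Irf4, Clec4a2, Cd209a, Itgax, Zbtb46 and Flt3) were at 29.0 CPM or more, although Itgax and Itgam encode the CD11c and CD11b of the gate. Their summed level was 1146 CPM in members and 1454 CPM in other cells. The cDC1 list of 11 genes summed to 628.3 CPM in members and 571.9 in other cells, with Wdfy4 highest at 317.2 CPM. The monocyte or macrophage list summed to 454.9 against 1553 CPM and the pDC list to 174.9 against 268.1. Much of the monocyte or macrophage sum in other cells was Lyz2, whose levels are given below. That list had a median of 2 UMIs per cell in members and 3 in other cells, with 95th percentiles of 5.8 and 33.55. The stromal list was at 0 in all 8 genes, the T or NK cell list summed to 5.84 CPM over 12 genes, and the erythroid list to 4.11 CPM over 7. The B cell list summed to 219.5 CPM in members, of which Ighm held 169.5, and to 241.5 CPM in other cells. The part of these markers in the differences below was not tested. Endothelial genes matter here because endothelium also carries ESAM. Pecam1 was at 58.8 CPM in the members and 39.8 CPM in the other cells, while Cdh5, Tek, Tie1, Egfl7, Cldn5, Stab2, Emcn and Eng were at 0 in the members. Kdr and Plvap, also on the endothelial list, were detected in the members, and the 11 genes summed to 60.5 CPM there and 48.8 CPM in other cells.

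Across the transcriptome, members and other cells differed in few genes and by large factors in fewer. Of 5726 genes with at least 20 CPM on the higher side, leaving out the 3 genes of the rule, 175 (3.06%) were at least 1.5-fold higher in members and 190 (3.32%) at least 1.5-fold lower. The median log2 ratio over these genes was 0.05. The genes farthest from equality were lower in members. Retnla had 0 UMIs in members, and among genes with a UMI there the ratios reached 75.7-fold for Clec10a. On the higher side the largest ratio was 3.07-fold for Ryr3. Thinning again with another random seed gave 169 and 201 genes, and 108 of the 175 and 150 of the 190 were called again, so that single genes near the threshold depended on the draw.

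**Figure D1:**
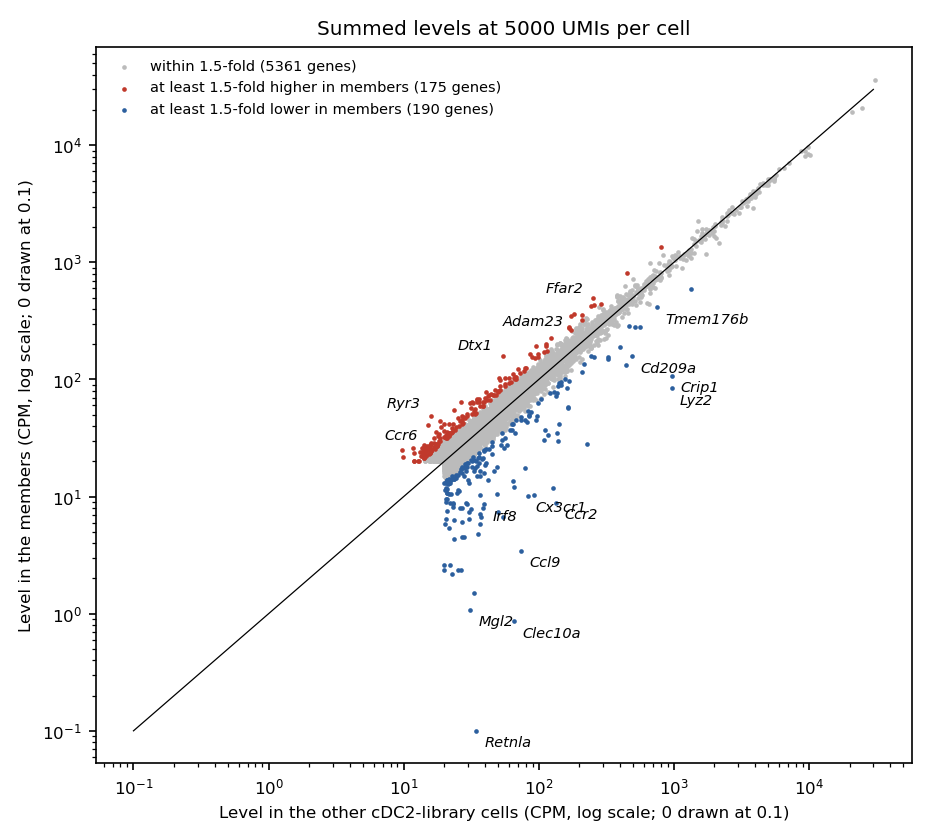
Each point is 1 gene, with its summed level in the 910 other cells of the cDC2 library on the x axis and in the 925 members on the y axis (CPM, log scales, 0 drawn at 0.1, the line marks equality, the 3 genes of the rule left out). The 175 genes in red lie close above the line, whereas blue genes such as Clec10a (0.865 against 65.5 CPM) and Ccr2 (8.86 against 134.7 CPM) lie far below it.

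The Notch pathway gene Dtx1 was among the genes with the largest ratio on the higher side. Dtx1 encodes Deltex, an E3 ubiquitin ligase that is both a regulator and a target of Notch signalling. Its level was 159.4 CPM (148.1 to 171.3) in members and 54.5 CPM (47.9 to 61.7) in other cells, a ratio of 2.92 (2.53 to 3.39). By kind of cell, Dtx1 stood at 188.9 CPM with Esam alone, 175.3 with both genes, 146.5 with Clec4a4 alone, 89.1 in cells negative for all 3, 42.6 with Clec12a and either gene, and 13.7 with Clec12a alone. The 3 kinds of member all lay above the 3 other kinds, and the intervals of cells with Esam alone (156.5 to 226.0) and with both genes (151.8 to 201.5) overlapped. Against the cells negative for all 3 genes alone, the ratio was 1.79 (1.52 to 2.11), and against cells with Clec12a alone it was 11.7 (7.64 to 18.7). In the sorted cDC1 and pDC libraries, thinned in the same way, Dtx1 was at 1.25 and 0.0484 CPM.

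Of the 16 genes of the cDC2A and Notch-dependent list outside the rule, 8 reached 20 CPM. Of those 8, 3 (Dtx1, Adam23 and Ffar2) were at least 1.5-fold higher in members (3.06% over all genes) and 0 were lower, with a median log2 ratio of 0.55 against 0.05 over all genes. Adam23, a catalytically inactive disintegrin of cell adhesion, was at 364.3 CPM in members and 182.4 CPM in other cells, a ratio of 2.00 (1.84 to 2.17). Ffar2, a receptor for short-chain fatty acids, was at 430.7 and 256.0 CPM, a ratio of 1.68 (1.56 to 1.81). Against the cells negative for all 3 genes the ratios were below the threshold, at 1.33 (1.21 to 1.47) for Adam23 and 1.25 (1.15 to 1.36) for Ffar2. Cd4, the T cell coreceptor also found on this subset, was at 96.9 CPM in members and 69.7 in other cells, a ratio of 1.39 (1.20 to 1.61), and at 91.9 CPM in cells negative for all 3 genes. Cd7 was within the fold at 415.8 against 279.1 CPM. Gpr183, which encodes the oxysterol receptor EBI2 that places these cells in the spleen, was at 134.7 and 131.9 CPM, a ratio of 1.02 (0.912 to 1.14).

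**Figure D2:**
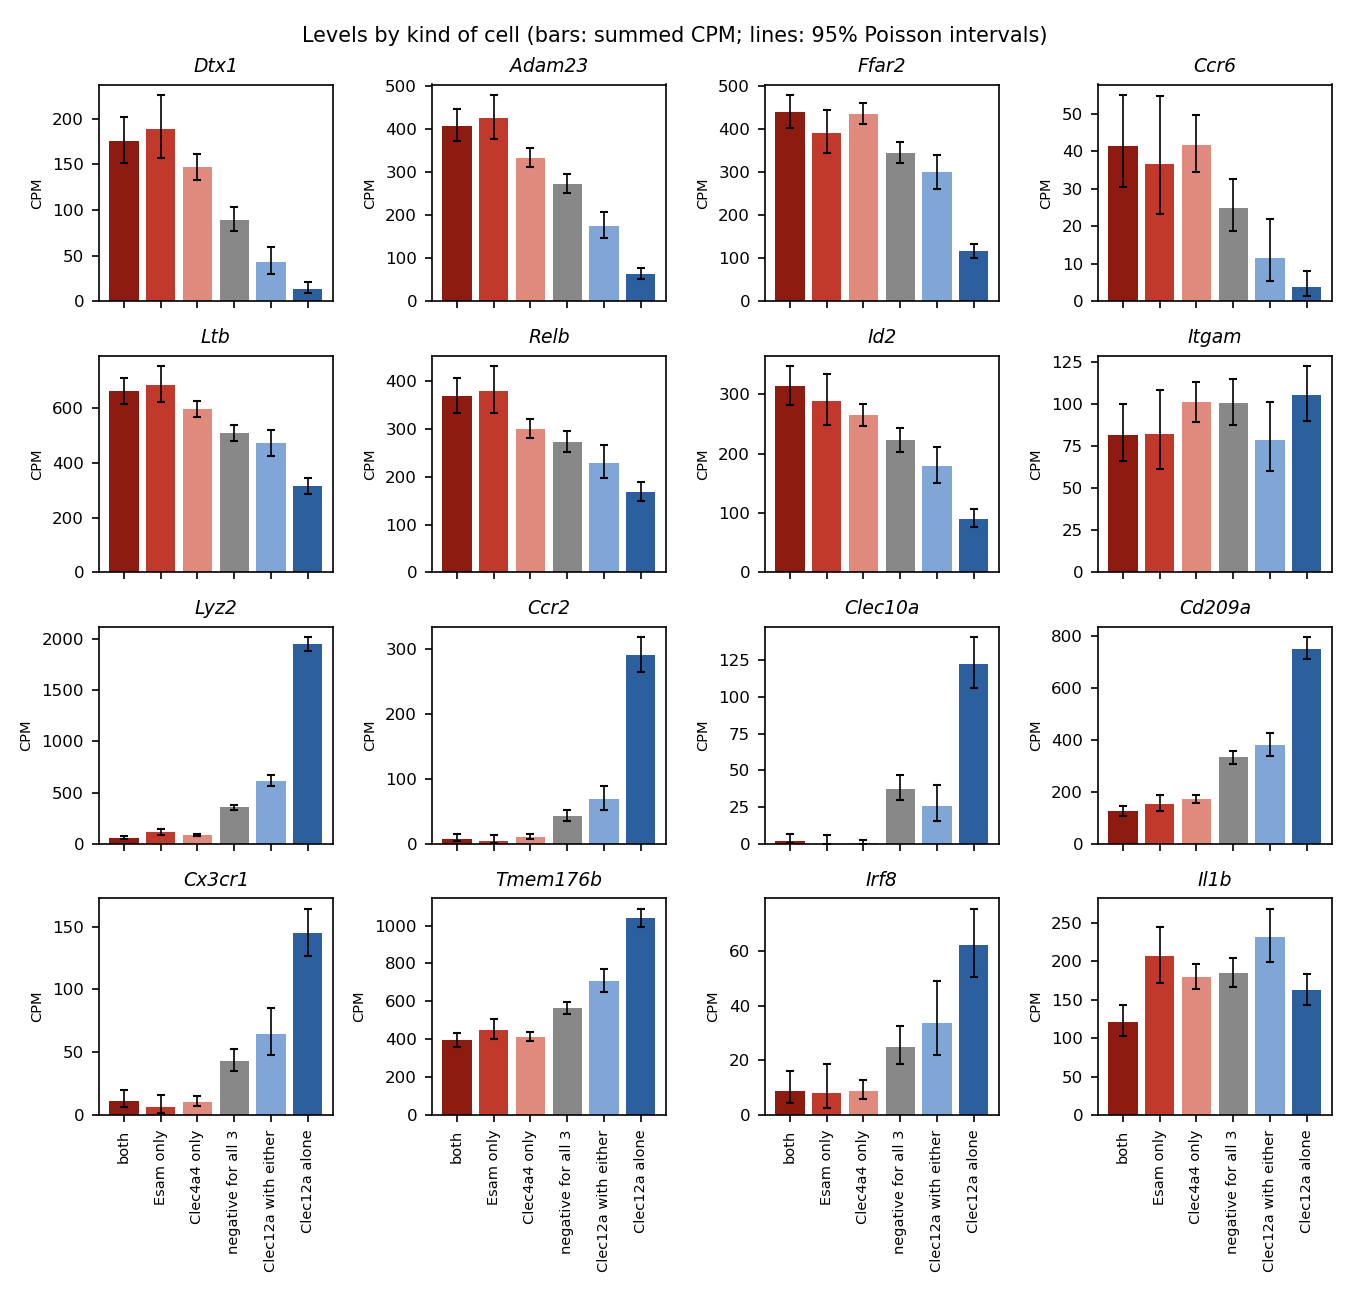
Bars are summed levels (CPM at 5000 UMIs per cell, each panel with its own axis from 0) of 16 genes in 6 kinds of cDC2-library cell, and lines are exact 95% Poisson intervals. Red bars are the 3 kinds of member (227, 126 and 572 cells), grey the cells negative for all 3 genes (433), and blue the cells with Clec12a and either gene (155) or Clec12a alone (322). Dtx1, Adam23, Ccr6 and Id2 are lowest and Lyz2, Ccr2, Clec10a and Cx3cr1 highest with Clec12a alone, with the grey bars between that kind and the members.

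Apart from Dtx1, the measured genes of the Notch pathway were within the fold. Of 26 genes, 14 reached 20 CPM, 1 (Dtx1) was past the fold (3.06% higher over all genes) and 13 were within it, with a median log2 ratio of -0.05. The receptor gene Notch2 was at 74.6 CPM in members and 82.0 CPM in other cells (ratio 0.910, 0.784 to 1.06). Rbpj, the DNA-binding partner of the cleaved receptor, was at 101.8 and 140.0 CPM (ratio 0.727, 0.644 to 0.821), which is lower in members but within the fold. Hes1, another Notch target, was at 78.3 and 68.1 CPM (ratio 1.15, 0.984 to 1.34).

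Promoters in the RefSeq table were read for TGGGAA, the core of the site that RBPJ binds, in the 250 bases before the start of transcription. They were also read for GAGGAA, the core bound by PU.1, a main factor of myeloid cells. Both strands were searched. Dtx1 and Ffar2 had promoters in that table, and they are shown because they were called on the cDC2A and Notch-dependent list. Adam23, also called on that list, is not shown, and no share of matches was computed for the list. Dtx1 lay at chr5:120711670-120711919 of GRCm38.p6 on the minus strand, held 0 copies of TGGGAA and 1 copy of GAGGAA read on the opposite strand. Ffar2 lay at chr7:30823776-30824025 on the minus strand, upstream of the first of 4 start sites, with 1 copy of TGGGAA and 0 of GAGGAA. Capitals mark the matches, and both run 5' to 3'.
Dtx1: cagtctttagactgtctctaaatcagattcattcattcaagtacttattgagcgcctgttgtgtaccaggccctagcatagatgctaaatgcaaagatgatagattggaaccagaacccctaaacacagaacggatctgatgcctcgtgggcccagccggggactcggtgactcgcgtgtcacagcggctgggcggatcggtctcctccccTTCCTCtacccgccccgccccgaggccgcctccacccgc
Ffar2: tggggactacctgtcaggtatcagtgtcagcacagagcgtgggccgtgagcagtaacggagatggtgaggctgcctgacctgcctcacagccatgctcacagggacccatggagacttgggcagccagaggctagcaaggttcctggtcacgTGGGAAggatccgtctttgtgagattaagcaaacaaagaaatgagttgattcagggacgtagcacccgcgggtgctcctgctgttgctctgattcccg
Over all 32851 promoters of this length, counted per promoter, 21.6% held TGGGAA. Counted per gene, with a match at any of its start sites, the share was 29 of 134 (21.6%) among genes higher in members that had a promoter in the table, 26 of 152 (17.1%) among genes lower, and 22.3% among genes within the fold. For GAGGAA, counted in the same ways, the shares were 23.3% of all promoters, 32.8% of the genes higher, 36.2% of the genes lower and 26.7% of those within. A match is a run of letters and not a measured site.

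Ccr6, the receptor for the chemokine CCL20, was at 40.9 CPM in members and 15.2 CPM in other cells, a ratio of 2.69 (2.04 to 3.60). It was at 36.5 to 41.6 CPM in the 3 kinds of member, at 24.9 CPM in cells negative for all 3 genes and at 3.73 CPM with Clec12a alone. Ryr3, which encodes a calcium release channel, was at 48.6 against 15.8 CPM, a ratio of 3.07 (2.35 to 4.07), and had 1 UMI in the 322 cells with Clec12a alone. Further genes among the 15 highest were Ceacam16 (64.6 against 26.4 CPM), the sodium channel Scn3a (44.3 against 18.7), the proteolipid Gpm6b (54.9 against 23.7) and the sodium-calcium exchanger Slc8a2 (21.8 against 9.89). Others among the 15 highest were Adam11, Ptpn3, Stk32c, Klrb1f, Eno3, Arap2 and Dscam, at ratios of 2.01 to 2.59. Arap2, a GTPase-activating protein for Arf, was the most abundant of them at 192.2 against 95.2 CPM (ratio 2.02, 1.80 to 2.27). Against the cells negative for all 3 genes, Adam23, Ffar2, Arap2, Dscam, Eno3, Gpm6b, Ptpn3, Scn3a and Slc8a2 were no longer past the fold. Still past it were Dtx1, Ccr6 (1.64, 1.20 to 2.26), Ryr3 (1.70, 1.28 to 2.29), Ceacam16, Adam11, Stk32c and Klrb1f. The 5 cells richest in Ryr3 held 14.7% of its UMIs in members and 41.7% in other cells.

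On the lower side stood the genes that mark the other cDC2 subset. Of the 23 genes of the cDC2B list outside the rule, 20 reached 20 CPM, 11 of them were at least 1.5-fold lower in members (3.32% over all genes), 0 were higher, and the median log2 ratio was -0.92. Clec10a, a lectin for galactose-type sugars, was at 0.865 CPM (0.236 to 2.21) in members and 65.5 CPM (58.3 to 73.4) in other cells, which rests on 4 against 298 UMIs. Its neighbour in function Mgl2 had 5 against 141 UMIs. Ccr2, the receptor that brings monocytes from the blood, was at 8.86 against 134.7 CPM, or 15.2-fold lower (11.1 to 21.4). Cx3cr1, the fractalkine receptor, was at 10.2 against 82.6 CPM, or 8.13-fold lower (5.99 to 11.3). Cd209a, a DC-SIGN homologue, was at 157.4 against 487.5 CPM, or 3.10-fold lower (2.85 to 3.37). The remaining called genes were Lyz2, Csf1r, Clec4a3, Tmem176a, Tmem176b, Mgl2 and Lgals3. S100a4 (1756 against 1735 CPM) and Klf4 (131.9 against 131.6 CPM), also on the list, were equal within counting error.

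Among the kinds of cell, these genes ran opposite to Dtx1. Ccr2 was at 7.93 CPM with both genes, 4.76 with Esam alone, 10.1 with Clec4a4 alone, 42.5 in cells negative for all 3, 68.4 with Clec12a and either gene, and 290.7 with Clec12a alone. The members' intervals overlapped one another and lay below the 3 other kinds. Cd209a was at 124.2, 154.0, 171.3, 331.6, 378.1 and 749.7 CPM in the same order. The 74 cells with exactly 1 Clec12a UMI beside Esam or Clec4a4 had 37.8 CPM of Ccr2 and 359.5 of Cd209a, above the members in both, and 64.9 CPM of Dtx1 (41.6 to 96.5), below them. Just inside the other side of the rule, the members with 1 UMI of Esam or Clec4a4 had 4.44 CPM of Ccr2, 167.4 of Cd209a and 142.7 of Dtx1. Just outside it, the cells negative for all 3 genes had 42.5, 331.6 and 89.1 CPM.

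Lyz2, which encodes lysozyme of myeloid cells, had 83.9 CPM (75.8 to 92.7) in members and 963.7 CPM (935.4 to 992.7) in other cells, or 11.5-fold lower (10.4 to 12.8). Lyz2 is 1 of 15 genes of the monocyte or macrophage list. It held 83.9 of the list's 454.9 CPM in members and 963.7 of the list's 1553 CPM in other cells. The list summed to 842.5 CPM in cells negative for all 3, 1258 with Clec12a and either gene, and 2651 with Clec12a alone. In the members its highest gene was Cd68 at 208.4 CPM, and Fcgr1 and Mertk were at 0. Cells with 5 or more UMIs of the list numbered 91 members and 270 other cells. Without them, the log2 ratio of Ccr2 was -3.10, of Clec10a -5.32, of Cd209a -1.43 and of Dtx1 1.23. That of Lyz2 was -0.69 in place of -3.52, but these cells were left out partly for their Lyz2 UMIs. Ffar2, Id2, H2-Eb2 and Tnf were among the genes then within the fold, and 107 genes were higher and 119 lower. The part of these cells in the other differences was not tested.

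**Figure D3:**
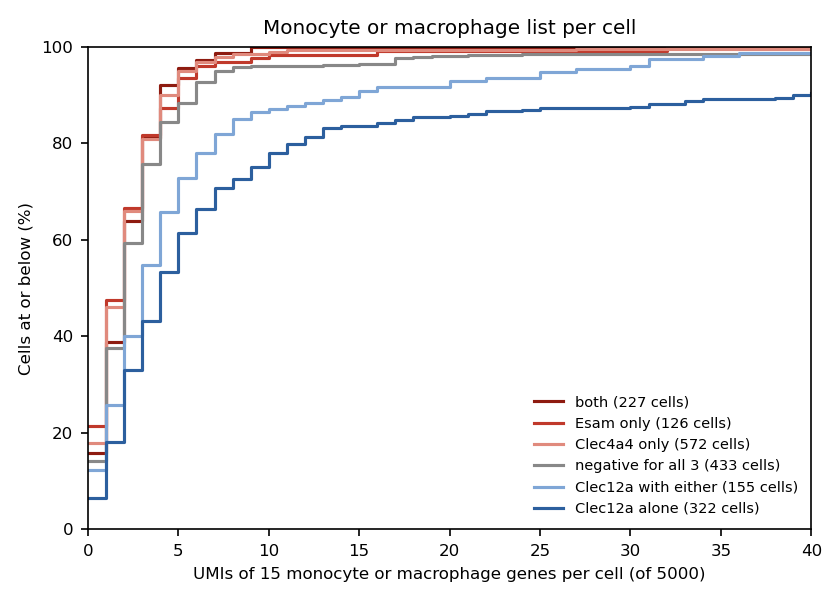
Each line shows, for 1 kind of cDC2-library cell, the share of cells (y axis, %) with at most the given number of UMIs of 15 monocyte or macrophage genes among 5000 UMIs (x axis, drawn to 40). The 3 kinds of member (reds) lie near the line of the cells negative for all 3 genes (grey), and the cells with Clec12a alone (dark blue) lie lowest, with the longest tail.

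A few of the lowest ratios came from a handful of cells. Retnla had 0 UMIs in members and 157 in other cells, all in 5 cells, of which 1 held 100. Taking 3 UMIs over the members as the limit that a count of 0 allows, it was at least 53.2-fold lower in members. Fn1, which encodes fibronectin, had 92.7% of its 150 UMIs among the other cells in 5 cells, and Cxcl10, an interferon-induced chemokine, had 92 of 115 in 5 cells. Crip1, by contrast, was spread over 586 of the 910 other cells. It encodes a small LIM-domain protein and was at 107.5 CPM in members and 964.4 CPM in other cells, or 8.97-fold lower (8.18 to 9.87), and still 5.88-fold lower (5.31 to 6.53) than in the cells negative for all 3 genes. Ahnak, a large scaffold protein, was at 11.9 against 127.3 CPM. Fcgr2b, the inhibitory Fc receptor, was at 10.4 against 92.5 CPM, or 8.92-fold lower (6.6 to 12.3). Ccl9, Hmox1, Xdh and Ly6i were also among the 15 lowest. Of the 121 Hmox1 UMIs in the other cells, 59.5% lay in 5 cells. Hmox1 was not called without cells with C1q genes, or without cells rich in monocyte or macrophage genes. Ly6i had 91 UMIs in the other cells, 16 of them in 1 cell, and was called again under 6 of 17 alternatives.

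Of 19 myeloid C-type lectin genes in the table, 10 reached 20 CPM, of which 6 (Clec10a, Mgl2, Clec4b1, Clec4a3, Cd209a and Cd302) were at least 1.5-fold lower (3.32% over all genes) and 0 higher, with a median log2 ratio of -1.22. Clec7a was not analysed here. Relatives of Clec4a4 did not differ as a block, since Clec4a3 was 2.84-fold lower (57.5 against 163.3 CPM), while Clec4a1 (121.3 against 143.3) and Clec4a2 (113.9 against 119.8) were within the fold. Of these 6 genes, Clec10a, Mgl2, Cd209a and Clec4a3 were also on the cDC2B list.

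**Figure D4:**
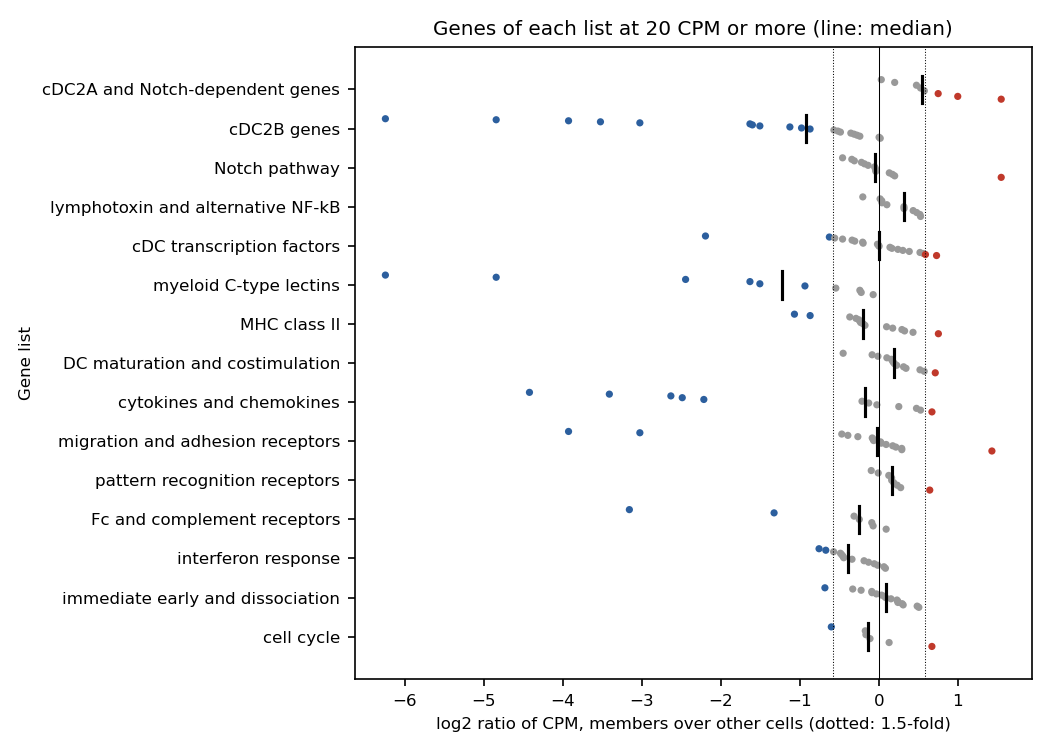
Each point is 1 gene of a list with at least 20 CPM on the higher side, at its log2 ratio of CPM in members over other cells (x axis), black bars are list medians and dotted lines mark 1.5-fold. The cDC2A and Notch-dependent list has the highest median (0.55) and the C-type lectin (-1.22) and cDC2B (-0.92) lists the lowest, against 0.05 over all 5726 genes.

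Genes of the lymphotoxin and alternative NF-kB pathway lay slightly to the higher side without passing the fold. Of 14 genes, 11 reached 20 CPM, and 0 were past the fold in either direction (3.06% higher and 3.32% lower over all genes), with a median log2 ratio of 0.32. Ltb, one of the ligand's subunits, was at 624.6 against 433.4 CPM (ratio 1.44, 1.36 to 1.53), and Relb, the transcription factor of the alternative pathway, at 328.4 against 229.0 (1.43, 1.32 to 1.55). The receptor gene Ltbr was at 20.3 and 19.8 CPM, and Nfkb2 at 89.3 and 87.0. Against cells with Clec12a alone, Ltb was 1.98-fold (1.80 to 2.18) and Relb 1.94-fold higher (1.71 to 2.22), and against cells negative for all 3 genes 1.23-fold (1.15 to 1.32) and 1.20-fold (1.09 to 1.32).

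Among 20 transcription factors of conventional dendritic cells that reached 20 CPM, 2 were past the fold on the higher side (3.06% over all genes). On the lower side 2 were past it (3.32% over all genes), and the median log2 ratio was near 0. Id2, an inhibitor of E proteins needed for conventional dendritic cells, was at 279.6 against 168.6 CPM (ratio 1.66, 1.52 to 1.82). Id2 was called again under 14 of 17 alternatives. The call was lost against cells negative for all 3 genes, with the rule on thinned counts, and without cells rich in monocyte or macrophage genes. Zbtb46, which marks conventional dendritic cells, was at 101.8 against 67.7 CPM (1.5, 1.3 to 1.74), at the threshold itself, and was called again under 5 of 17 alternatives. Irf8, the factor of cDC1 and pDC, was at 8.65 against 39.6 CPM, or 4.57-fold lower (3.23 to 6.62), and at 62.1 CPM with Clec12a alone. The sorted cDC1 and pDC libraries had 1623 and 3544 CPM of Irf8. Zeb2 was at 157.6 against 243.3 CPM, or 1.54-fold lower (1.40 to 1.70), and was called again under 11 of 17 alternatives. Spi1 (579.5 against 580.7 CPM) and the cDC2 factor Irf4 (29.0 against 33.4 CPM) were level within counting error.

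Most antigen presentation genes were within the fold. The 15 genes of the MHC class II list included 1 called higher (3.06% over all genes) and 2 called lower (3.32% over all genes), with a median log2 ratio of -0.20. The list summed to 50970 CPM in members and 59929 CPM in other cells. H2-Eb2, an atypical class II beta chain, was at 192.2 against 114.1 CPM (ratio 1.69, 1.51 to 1.88). H2-Eb2 was not called against cells negative for all 3 genes, or without cells rich in monocyte or macrophage genes. H2-DMb1, part of the peptide-loading DM molecule, was 1.83-fold lower (1.71 to 1.96) at 280.9 against 513.2 CPM, whereas its close copy H2-DMb2 was at 510.3 against 378.2 (ratio 1.35, 1.27 to 1.44). Reads of these 2 genes, and of other H2 genes, could have been split between copies. Lgmn, a lysosomal protease, was at 27.7 against 58.0 CPM. Cd74, the invariant chain, was at 20815 against 24808 CPM (ratio 0.839, 0.832 to 0.846), and H2-Aa at 8385 against 9904, both within the fold, in a library sorted for MHC-II protein.

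Of 14 maturation and costimulation genes at 20 CPM or more, 1 was past the fold and it was higher (3.06% over all genes). Pdcd1lg2, which encodes PD-L2, was at 32.4 against 19.8 CPM (ratio 1.64, 1.25 to 2.15), and was called again under 12 of 17 alternatives. Cd86 (61.4 against 52.5 CPM), Cd83 (91.9 against 81.5) and Cd40 (60.8 against 53.0) were within it. Among 12 cytokine and chemokine genes, Tnf was higher (3.06% over all genes) at 66.2 against 41.5 CPM (1.59, 1.32 to 1.92). The 5 lower genes (3.32% over all genes) were chemokines (Ccl6, Ccl9, Cxcl9, Cxcl10 and Cxcl16). Ccl6 and Ccl9 were called again under all 17 alternatives, Cxcl16 under 14, and Tnf, Cxcl9 and Cxcl10 under 13 each. Without cells rich in monocyte or macrophage genes, Tnf, Cxcl9, Cxcl10 and Cxcl16 were not called. Ccl6 was at 29.8 against 138.5 CPM and Ccl9 at 3.46 against 74.1 CPM, and reads of these similar genes could be confused. Ccl5 (524.5 against 377.1 CPM, ratio 1.39) and Il1b (169.1 against 184.8, ratio 0.915) were within the fold.

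The calls in the remaining lists stand beside 3.06% higher and 3.32% lower over all genes. Of 16 migration and adhesion receptors, Ccr6 was higher and Ccr2 and Cx3cr1 lower, and Itga4 (554.4 against 477.6 CPM) and Itgb2 (330.8 against 270.8) were within the fold. Of 9 pattern recognition genes, Tlr7 was higher at 35 against 22.4 CPM, a call that another random seed ended. Of 7 Fc and complement receptor genes, Fcgr2b and Lilrb4a were lower. Of 14 interferon response genes, Bst2 (87.4 against 139.1 CPM) and Rsad2 (16.0 against 27.0) were lower, called again under 14 and 12 of 17 alternatives, and the median log2 ratio was -0.39. Mx1 was not analysed here. Of 17 immediate early and dissociation genes, Atf3 was lower at 20.5 against 33.0 CPM, a call made again under 10 of 17 alternatives, and Jun (527.1 against 474.1) and Junb (526.1 against 559.8) were within the fold. Of 6 cell cycle genes, Mki67 was higher (26.6 against 16.7 CPM) and Mcm3 lower (14.9 against 22.6), and both calls were lost without thinning.

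Clusters of the library gave a second view of where the members lay. Cells were clustered on the variable genes without Esam, Clec4a4 and Clec12a, which gave 12 clusters, described by number and leading genes because no deposited annotation was used. Members made up 73.9% of cluster 3 (67.2 to 79.8; led by Tnik and Mmp9) and 73.8% of cluster 4 (67.1 to 79.9; led by Gadd45b, Ccr7 and Nr4a3). They made up 58.1% to 70.7% of clusters 11, 7, 1, 2 and 6. The interferon gene cluster 12 had 34.9% and cluster 9, led by Cd8a, 20.8%. Lowest were cluster 5 (11.1%; led by C1qb and Ccl24), cluster 10 (5.71%; led by Ace and Xdh) and cluster 8 (2.86%, or 4 of 140 cells; led by Fcrls and Retnla). The 7 clusters with the highest shares of members had a Clec12a UMI in 3.80% to 14.9% of cells, and clusters 5, 8 and 10 in 69.5% to 72.1%. The rule ties these shares, since no cell with a Clec12a UMI can be a member. Cells with Esam or Clec4a4, with or without Clec12a, made up 63.1% to 77.4% of those 7 clusters and 9.29% to 31.7% of clusters 5, 8 and 10. No single cluster held more members than cluster 1, with 169 of 936, or 18.1%.

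**Figure D5:**
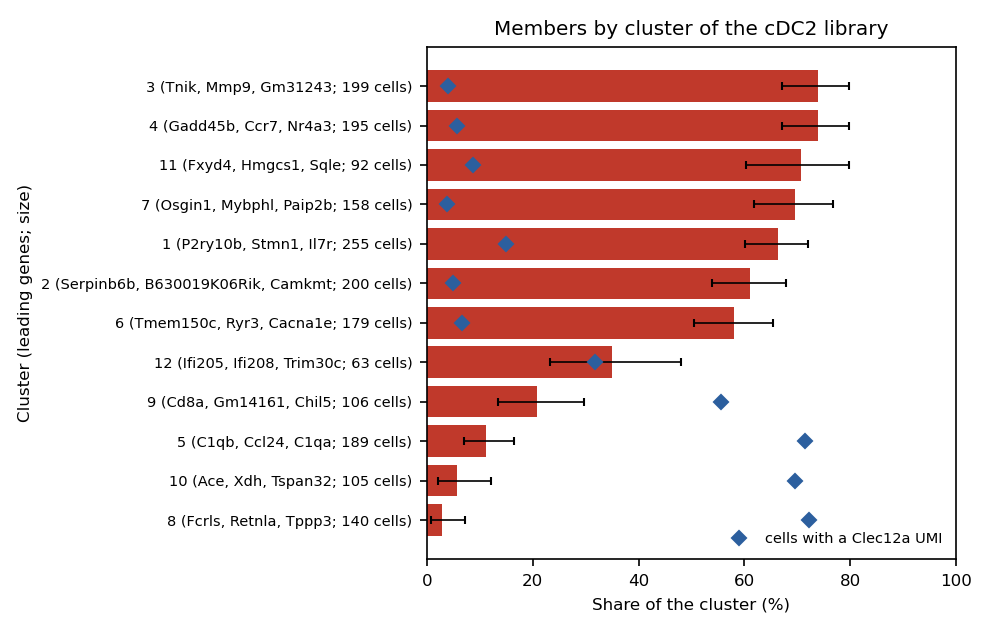
Bars show the share of members in each of 12 clusters of the cDC2 library (x axis, %, with exact 95% binomial intervals). Diamonds show the share of cells with a Clec12a UMI, which by the rule cannot be members. Labels on the y axis give cluster number, 3 leading genes and number of cells, and 7 clusters lie at 58.1% or more members while 3 lie at 11.1% or less.

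Within the 7 clusters rich in members, levels varied by gene. Dtx1 ranged from 112.9 CPM in cluster 6 to 265.9 CPM in cluster 11, and stood at 4.35 to 11.3 CPM in clusters 5, 8, 9 and 10. Adam23 ranged from 205.3 CPM in cluster 2 to 668.2 CPM in cluster 6. Ccr6 was lowest at 11 CPM in cluster 11 and highest at 72.9 CPM in cluster 4. Relb stood at 692.7 CPM in cluster 4 and at 201.1 to 323.5 CPM in the other 6. Lyz2 was at 28.6 to 89.6 CPM throughout the 7, at 3613 CPM in cluster 5 and at 936.2 CPM in cluster 8. Since these genes entered the clustering, their spread over clusters is a description.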

How the data were processed

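The authors deposited whole-number UMI counts per gene symbol and cell in 1 table of 24455 genes, which the submitters' processing notes tie to Cell Ranger 6.0.1, Seurat and mm10. The sources used here do not give filters on cells, strand handling or any removal of doublets. Column names gave the library of every cell, with 0 columns unassigned. The members and gene lists were chosen with earlier results of these data known. Genes named are the 15 highest and 15 lowest ratios, called and most abundant genes of each list, and further list members or genes chosen after their values were seen. Some genes that the rule selects are not reported here.

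Counts of cells with at least 5000 UMIs were thinned without replacement (seed 1), summed per group and scaled to CPM. A gene was called at a ratio of 1.5 and 20 CPM on the higher side. Poisson and Clopper-Pearson 95% intervals, and the limit of 3 counts behind a count of 0, cover counting error only. As deposited, members summed to 11240475 UMIs and the other cells to 12116750. Clusters used leidenalg 0.10.2 and igraph 0.11.9 (1500 variable genes, 20 components, 15 neighbours, Leiden resolution 1). Scrublet was run through scanpy 1.11.5. Scrublet marked 9 of 1881 cells (0.478%), 2 of them members, which were kept. Scripts were tested on simulated data. Alternatives covered depth, seed, rule, comparison cells, scaling (median ratio, TMM of edgeR 4.0.16), level, doublets, marker genes and resolution.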

Additional observations from a re-analysis of the deposited data

Results flagged for a closer look

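Esam was detected in 21 of 814 cells of the cDC1 library (2.58%, exact binomial 95% interval 1.60 to 3.92), at 1.74 CPM as deposited. This library is outside the comparison, and the value lies above the 0 of 4169 pDC cells and the 0 of 2045 and 0 of 1728 fibroblasts. At 5000 UMIs per cell the share was 0.876% (7 of 799 cells). Clec4a4 was at 0 in the same cDC1 cells.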

How the results depend on the processing

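All values come from 1 library, so no replicate could be left out. No paired analysis was possible because no second cDC2 library carries a replicate number. The counts of genes higher and lower in members, 175 and 190, moved with the comparison cells: 54 and 98 against cells negative for all 3 genes (29 and 74 of them shared with the first calls), and 492 and 343 against cells with Clec12a. They were 116 and 109 with the rule applied to thinned counts, 81 and 70 at 50 CPM or more, and 498 and 603 at 5 CPM or more. The genes compared numbered 2909 at 50 CPM and 9286 at 5 CPM, beside 5726 at 20 CPM, so counts at these levels have unlike totals. Without cells holding 2 or more UMIs of other cell types' markers, which left 174 members and 154 other cells, they were 651 and 542. Without cells rich in monocyte or macrophage genes, an alternative added after seeing the data, they were 107 and 119. The cause of these shifts was not tested. Median ratio scaling gave 139 and 227 and TMM scaling 150 and 220, so that the share of called genes that were higher went from 47.95% to 37.98% and 40.54%. In cells matched on UMIs (771 on each side), 140 of the 175 and 151 of the 190 were called again. Of the 102 genes named by the rule, 57 were called; 0 of these changed sign under the alternatives that gave them a value, up to 17, and Retnla, 1 of the 57, was left aside because a count of 0 gives no log ratio; genes named outside the rule were not followed. The share of members was 33.6% with the rule applied at 5000 UMIs per cell and 19.6% at 2500. It was 27.8% when 2 UMIs of Esam or Clec4a4 were required at the deposited depth. At resolution 2 the highest share of members in a cluster was 83.3%.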

Other observations

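Several of the most abundant called genes belong to none of the lists, and they were singled out after their values were seen. Ccnd1, which encodes cyclin D1, was at 1347 CPM in members and 800.9 CPM in other cells, a ratio of 1.68 (1.61 to 1.75). Tbc1d4, a GTPase-activating protein for Rab GTPases, was at 816.0 against 447.3 CPM (1.82, 1.73 to 1.93). Rgs1, a regulator of G protein signalling, was at 496.2 against 251.6 CPM (1.97, 1.84 to 2.12), and Ppp1r14a, an inhibitor of a protein phosphatase, at 345.1 against 171.9 CPM (2.01, 1.84 to 2.19). On the lower side were Psap (596.5 against 1350 CPM, 2.26-fold lower) and Npc2 (155.5 against 328.1 CPM, 2.11-fold lower), which encode lysosomal proteins for lipid breakdown and cholesterol export. Vim, an intermediate filament, was at 133.4 against 445.5 CPM, or 3.34-fold lower (3.05 to 3.66).

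Members also varied among themselves, in genes again picked after their values were seen among those with at least 100 CPM in either group. Cells with Esam alone, 126 after thinning, had higher levels than the 572 with Clec4a4 alone of Etv3 (136.5 against 66.4 CPM, ratio 2.05, 1.57 to 2.66), Il4i1 (169.8 against 87.8, 1.94, 1.53 to 2.44), Icam1 (176.2 against 107.0) and Cd83 (136.5 against 85.3). Over the 1457 genes compared there, the 5th and 95th percentiles of the log2 ratio were -0.31 and 0.36. Il4i1 and Cd83 are on the maturation and costimulation list. Its median was 7 UMIs per cell with Esam alone and 6 with Clec4a4 alone, and its 95th percentile 31 and 17. Whether a few cells carried the higher levels was not tested. Il1b was at 202.0 CPM in members with 1 UMI of Esam or Clec4a4, 168.3 with 2 and 118.8 with 3 or more, where the ratio of the last to the first was 0.588 (0.486 to 0.709). Its UMIs were uneven over cells, since 1 member held 43 of 782 and 5 members held 121. Ccr2 went the other way, at 4.44 CPM with 1 UMI and 17.6 CPM with 3 or more, which rests on 9 and 23 UMIs.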
